A study of Mus musculus with 9 samples.

Results

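The miR-378 microRNAs (miRNAs) of the left ventricle were followed in mice that carry an active Nrf2 transgene and in mice without it. They comprise every row of the deposited count table whose name starts with mmu-miR-378. Rows were taken by name, but the miR-378 miRNAs were chosen with earlier results of these data known. The miR-378 rows number 5 of 621: mmu-miR-378a-3p, mmu-miR-378a-5p, mmu-miR-378b, mmu-miR-378c and mmu-miR-378d. All 5 are among the 509 rows that passed the filter on low counts, each with at least 442 counts in every library. The left ventricles came from male C57BL/6J mice, 6 months old, with 3 libraries each from Non-Transgenic mice (NTG) and from 2 lines with a constitutively active Nrf2. TG-Low stands for CaNrf2-Low mice, TG-High for CaNrf2-High mice. Nrf2 is the transcription factor that switches on antioxidant genes, and the labels do not name the promoter that drives the transgene. They also do not say whether each library is a separate animal, so p-values measure the spread between these libraries, which may be technical.

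The miR-378a hairpin lies in an intron of Ppargc1b, which encodes PGC-1β, a coactivator of genes for mitochondria and fatty acid oxidation. Work in mice described its 3p arm as a repressor of Crat, a mitochondrial acetyltransferase, and its 5p arm as a repressor of Med13, a subunit of the Mediator complex. In the heart the 3p arm is known as a miRNA of muscle cells that dampens growth signalling. miR-378b, miR-378c and miR-378d are paralogues from separate hairpins, and their mature sequences are nearly those of miR-378a-3p.

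The mature sequences of the 3 paralogues are shown because they bear on what each row can measure. They are from RefSeq (GRCm38.p6), 5′ to 3′, with the seed (bases 2 to 8, which pair with targets) in capitals.
mmu-miR-378b: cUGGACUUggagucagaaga
mmu-miR-378c: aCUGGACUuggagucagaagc
mmu-miR-378d: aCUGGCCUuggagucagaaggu
miR-378b is 20 bases long, and aligned from its start to the second base of miR-378c it shares an unbroken run of 19 bases with it. Its seed is nonetheless another word, because it starts 1 base later. miR-378c and miR-378d differ at 2 of 21 aligned bases, A6C inside the seed and C21G outside it, counted from 1 at the 5′ end with the base of miR-378c first. Among these 3 sequences no seed is shared.

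The hairpins that hold these sequences differ more than the mature products do, as the hairpin sequences show (RefSeq, GRCm38.p6, mature product in capitals). The mature product of miR-378b lies on the 3′ side of its hairpin, from base 67 of 92. Those of miR-378c and miR-378d lie on the 5′ side, from base 4 of 99 and base 16 of 110.
Mir378b: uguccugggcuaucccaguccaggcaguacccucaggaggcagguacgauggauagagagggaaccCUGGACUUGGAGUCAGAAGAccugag
Mir378c: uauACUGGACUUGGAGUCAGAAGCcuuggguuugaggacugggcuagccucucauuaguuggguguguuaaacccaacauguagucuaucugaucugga
Mir378d: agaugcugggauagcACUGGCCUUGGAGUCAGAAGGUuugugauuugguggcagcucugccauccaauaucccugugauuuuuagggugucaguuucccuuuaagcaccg

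In GRCm38 the Mir378b hairpin lies at chr11:88352773-88352864 on the plus strand, in an intron of Msi2, which is on the opposite strand. Mir378c lies at chr14:46954830-46954928 on the minus strand, in an intron of Samd4 on the opposite strand. Mir378d lies at chr10:126710282-126710391 on the minus strand and overlaps no other gene of GENCODE M21. Ppargc1b and Mir378a are on the same strand, and an annotated miRNA gene, Gm25301, overlaps Mir378a (chr18:61397835-61397900, minus strand) on the opposite strand.

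Whether strand was used was not given in the sources used here, nor was how reads that match several hairpins were counted. Outside the miR-378 rows, miR-1a-3p and miR-1b-5p held equal counts in every library, and miR-126a-3p and miR-126b-5p nearly equal ones. miR-1a-3p, whose 5p rows name the hairpins miR-1a-1 and miR-1a-2, was scarce, as given below. Whether reads were counted without regard to strand, or left out where they match several hairpins, was not tested. The levels of the 3 paralogue rows are therefore uncertain, since reads could be split between them and miR-378a-3p or be left out. No other row of the table carried counts near-identical to a miR-378 row (log2 counts within 0.03 in every library).

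Total counts ranged from 3.62 M in TG-High replicate 2 to 11.7 M in TG-High replicate 1 (M is 1e6 counts). Levels are counts per 1e6 (CPM) scaled by the trimmed mean of M values (TMM), without adjustment for length, since mature miRNAs are close in length. How completely each row captured its miRNA was not tested, so levels of different rows can be compared only roughly. Of 9 rows listed as heart muscle markers, 0 were at 0 in all libraries, but miR-133a-3p reached only 0.407 to 3.83 CPM and miR-1a-3p 54.4 to 166 CPM. Their summed level was 22310 to 26480 CPM in NTG, 19350 to 23130 CPM in TG-Low and 12440 to 16570 CPM in TG-High, most of it miR-499-5p. In these bulk samples fewer cells of a type and less RNA per cell cannot be told apart.

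In every library miR-378a-3p ranked 4 or 5 among all rows, with a mean of 58932 CPM over 9 libraries. By mean level it followed miR-22-3p and miR-143-3p, with 2 near-identical endothelial rows, miR-126b-5p and miR-126a-3p, at the top. If those 2 rows hold the same reads, which was not tested, miR-378a-3p would rank higher and hold a larger share of the counts. Its share of all counts was 5.23 ± 0.474% in NTG (mean ± SD, n = 3), 6.21 ± 0.943% in TG-Low and 6.20 ± 0.379% in TG-High. The other 4 rows were far lower: miR-378a-3p exceeded miR-378a-5p 21.5- to 32.7-fold, miR-378c 90.3- to 202-fold, miR-378d 94.4- to 181-fold and miR-378b 329- to 703-fold across libraries. Of the summed miR-378 counts, miR-378a-3p held 93.9% to 95.6%, and the summed counts were 5.04% to 5.98% of a library in NTG and 5.65% to 7.71% in the transgenic groups.

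The level of miR-378a-3p, the more abundant arm of its hairpin, was 51971, 43287 and 59547 CPM in NTG replicates 0, 1 and 2. In TG-Low it was 63505, 72035 and 57232 CPM, and in TG-High 63066, 62345 and 57397 CPM. The 2 lowest libraries were both NTG, but NTG replicate 2 lay above TG-Low replicate 2 and TG-High replicate 2, so the groups overlapped. Group means were 51602 ± 8136 CPM in NTG, 64257 ± 7431 CPM in TG-Low and 60936 ± 3086 CPM in TG-High (SD, n = 3).

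miR-378a-5p, the minor arm, was at 1591, 1830 and 2004 CPM in NTG. It was at 2320, 3349 and 1995 CPM in TG-Low and at 2212, 2035 and 2497 CPM in TG-High, in replicates 0, 1 and 2. TG-Low replicate 1 was the highest library for both arms, and TG-Low replicate 2, at 1995 CPM, was the only transgenic library below an NTG library for the 5p arm. Group means were 1808 ± 207 CPM in NTG, 2555 ± 707 CPM in TG-Low and 2248 ± 233 CPM in TG-High (SD, n = 3).

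miR-378d was at 550, 376 and 534 CPM in NTG, at 444, 584 and 324 CPM in TG-Low, and at 400, 344 and 458 CPM in TG-High. miR-378c was at 505, 479 and 476 CPM in NTG, at 514, 569 and 283 CPM in TG-Low, and at 352, 401 and 393 CPM in TG-High. The 3 NTG libraries of miR-378c lay closer together than those of any other miR-378 row (coefficient of variation 3.28%), and all 3 TG-High libraries lay below them, while TG-Low libraries lay on either side. How many of all rows separate TG-High from NTG, in either direction, was not counted. It is at least 17.3% of the 509 tested rows, since that share had all 6 transgenic libraries beyond all 3 NTG libraries. In the edgeR test given below 93 of 509 rows (18.3%) passed in that comparison, and miR-378c did not (adjusted p = 0.292). miR-378b, the scarcest row, was at 158, 114 and 127 CPM in NTG, at 142, 189 and 81.4 CPM in TG-Low, and at 128, 92.3 and 121 CPM in TG-High. For all 3 paralogues TG-Low held both the highest library, replicate 1, and the lowest, replicate 2. The lowest count of any miR-378 row was 442 (miR-378b in TG-High replicate 2), for which counting error alone gives an exact Poisson 95% interval of 402 to 485.

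**Figure D1:**
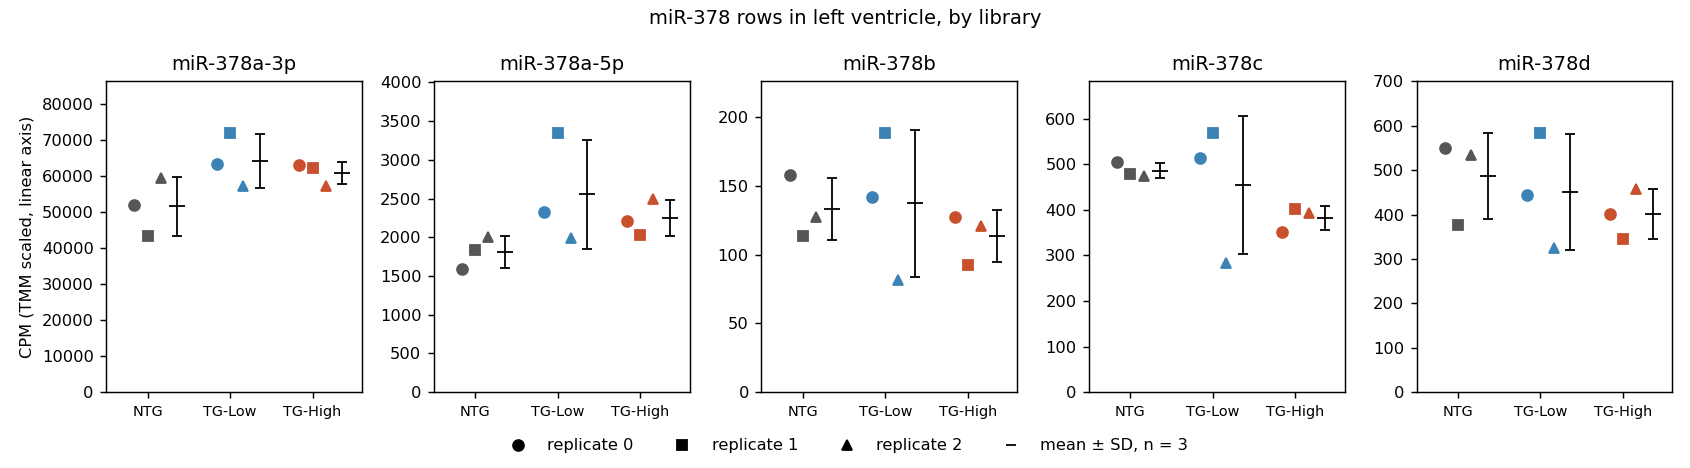
CPM (TMM scaled, linear axis from 0) of the 5 miR-378 rows in each of the 9 libraries, with the mean ± SD of each group (n = 3). The NTG and transgenic libraries overlap in every panel, and TG-Low replicates 1 and 2 are the highest and the lowest library of miR-378b, miR-378c and miR-378d.

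The comparison of both transgenic lines together with NTG is also that of the authors' deposited table. None of the 5 miR-378 rows passed an adjusted p of 0.05 in the quasi-likelihood test of edgeR, Benjamini-Hochberg adjusted over 509 rows, where 44 rows (8.64%) passed. DESeq2's Wald test also called 0 of the 5. Both arms of miR-378a were below 0.05 before adjustment in edgeR, as were 157 of the 509 rows (30.8%). For miR-378a-3p the log2 fold change was 0.28 ± 0.12 (SE), a 1.21-fold difference with a 95% interval of 1.02- to 1.45-fold (edgeR adjusted p = 0.133, n = 6 and 3). For miR-378a-5p it was 0.41 ± 0.16, or 1.33-fold with an interval of 1.03- to 1.70-fold (edgeR adjusted p = 0.123). By unadjusted p the arms ranked 127 and 120 of 509, behind many other rows. The authors' deposited table lists 0.27 for miR-378a-3p (adjusted p = 0.104, SE 0.12) and 0.40 for miR-378a-5p (adjusted p = 0.108, SE 0.18), both on the log2 scale.

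The 3 paralogues had negative log2 fold changes in that comparison, all smaller than 2 standard errors. The log2 fold change was -0.22 ± 0.19 for miR-378c (edgeR adjusted p = 0.486), -0.19 ± 0.19 for miR-378d (adjusted p = 0.527) and -0.08 ± 0.23 for miR-378b (adjusted p = 0.846). The value of miR-378b turned positive without NTG replicate 0 (0.06) or without TG-Low replicate 2 (0.016). The 95% intervals ran from 0.645- to 1.15-fold for miR-378c, 0.655- to 1.17-fold for miR-378d and 0.662- to 1.34-fold for miR-378b. In CPM, 0 of the 5 rows had all 6 transgenic libraries beyond all 3 NTG libraries, as against 17.3% of the 509 tested rows.

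**Figure D2:**
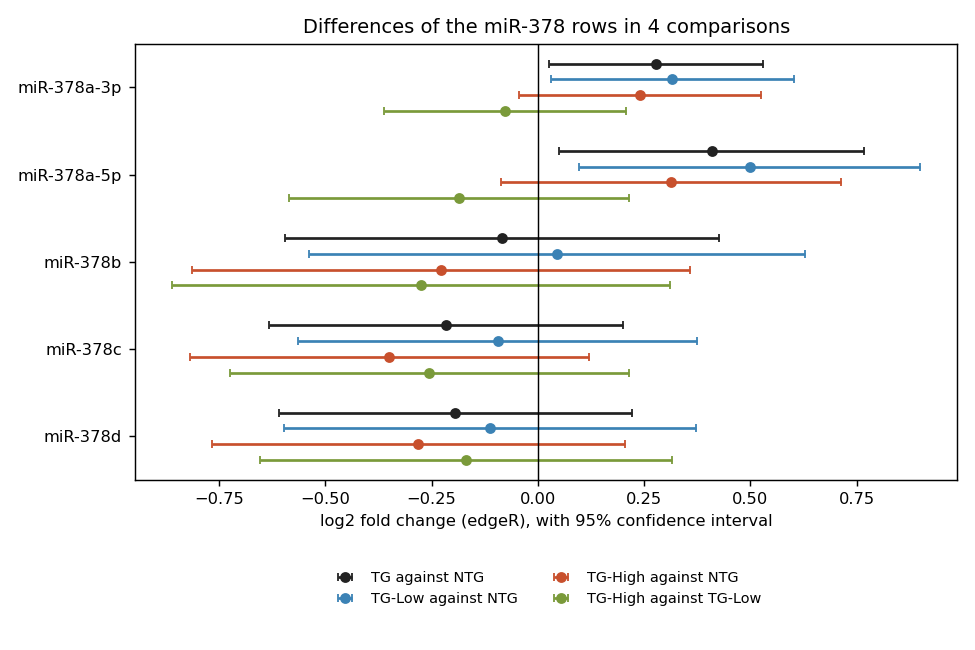
edgeR log2 fold change (horizontal axis) of each miR-378 row in 4 comparisons, with 95% confidence intervals unadjusted for the 509 rows. Both arms of miR-378a lie above 0 against NTG, from 0.24 to 0.50, and 0 of the 20 values pass an adjusted p of 0.05.

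TG-Low against NTG asks the same of the Low line by itself. There 0 of the 5 rows passed in edgeR or DESeq2, where 8 of 509 (1.57%) did in edgeR. Both arms of miR-378a were below 0.05 before adjustment in edgeR, as were 88 of the 509 rows (17.3%). The log2 fold change was 0.50 ± 0.18 for miR-378a-5p (edgeR adjusted p = 0.176) and 0.32 ± 0.13 for miR-378a-3p (adjusted p = 0.235). The paralogues had 0.05 ± 0.27 (miR-378b), -0.09 ± 0.21 (miR-378c) and -0.11 ± 0.22 (miR-378d). Without TG-Low replicate 2 the values of miR-378c and miR-378d turned to 0.13 and 0.05. The sign of miR-378b also turned under 4 of its 15 alternatives, for example to -0.26 without TG-Low replicate 1.

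In TG-High against NTG, 0 of the 5 rows passed (with 0 below 0.05 before adjustment and 0 in DESeq2), where 93 of 509 (18.3%) did. The log2 fold changes were 0.24 ± 0.13 for miR-378a-3p (edgeR adjusted p = 0.231) and 0.31 ± 0.18 for miR-378a-5p (adjusted p = 0.267). They were -0.35 ± 0.21 for miR-378c (adjusted p = 0.292), -0.28 ± 0.22 for miR-378d (adjusted p = 0.402) and -0.23 ± 0.27 for miR-378b (adjusted p = 0.599). The summed heart muscle markers given above were lower in every TG-High than in every NTG library, and that sum is mostly 1 row. Of the 9, miR-499-5p fell and 8 did not pass edgeR's test. Those 8 log2 fold changes ran from -0.52 ± 0.19 for miR-208a-5p (edgeR adjusted p = 0.0889) to 0.61 ± 0.37 for miR-1a-2-5p. Between them lay miR-133a-5p (-0.22 ± 0.29), miR-499-3p (-0.19 ± 0.26), miR-208a-3p (0.03 ± 0.10), miR-133a-3p (0.17 ± 0.66), miR-1a-1-5p (0.41 ± 0.35) and miR-1a-3p (0.45 ± 0.27). The 3 TG-High libraries of miR-378a-3p lay above NTG replicates 0 and 1, but TG-High replicate 2 (57397 CPM) lay below NTG replicate 2 (59547 CPM). Summed blood cell markers (9 rows, 0 of them at 0) were 2937 to 3794 CPM in NTG and 1566 to 1673 CPM in TG-High, but the rows did not move as 1. Of the 9 rows, 5 fell in edgeR (miR-451a and both arms of miR-144, known from red cells, and both arms of miR-150, known from lymphocytes). miR-223-5p, of myeloid cells, rose (0.93 ± 0.29, edgeR adjusted p = 0.0492), and 3 did not pass, including miR-142a-3p (0.41 ± 0.24). The part of either marker list in the miR-378 values was not tested.

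The 2 lines were compared directly in TG-High against TG-Low. All 5 rows had negative log2 fold changes, from -0.08 ± 0.13 for miR-378a-3p to -0.27 ± 0.27 for miR-378b, and 0 passed (with 0 below 0.05 before adjustment and 0 in DESeq2), where 7 of 509 (1.38%) did. The 95% interval for miR-378a-3p was 0.778- to 1.16-fold. This contrast shares its libraries with the other 3, so the 4 values of a row are not independent.

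Counts of 2 rows within a library form a ratio that needs no scaling between libraries, and 4 rows were set against miR-378a-3p in this way. The count of miR-378d was 1.06%, 0.869% and 0.897% of that of miR-378a-3p in NTG. It was 0.699%, 0.811% and 0.565% in TG-Low and 0.635%, 0.552% and 0.798% in TG-High. All 6 transgenic libraries lay below all 3 NTG libraries. The mean ratio (± SD, n = 3) was 0.942 ± 0.103% in NTG, 0.692 ± 0.123% in TG-Low and 0.662 ± 0.125% in TG-High.

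The miR-378d ratio was thus 1.40-fold lower in transgenic hearts (log2 difference -0.49). Both rows enter that difference: the edgeR log2 fold change was -0.19 ± 0.19 for miR-378d and 0.28 ± 0.12 for miR-378a-3p, the divisor of all these ratios. The two-sided exact permutation test gave p = 0.0238, the smallest that 6 against 3 libraries allow, and an adjusted p of 0.229 over the 16 ratio tests (4 ratios in 4 comparisons). Such a separation was common in these data: of the other 508 rows tested, 99 (19.5%) had a ratio to miR-378a-3p that was lower in all 6 transgenic than in all 3 NTG libraries, miR-378d among them. The median row had a log2 difference of -0.28 on that scale, and 155 rows (30.5%) had a lower value than miR-378d.

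miR-378c was at 0.971%, 1.11% and 0.799% of miR-378a-3p in NTG, at 0.810%, 0.790% and 0.495% in TG-Low, and at 0.558%, 0.644% and 0.684% in TG-High. TG-Low replicate 0 lay just above NTG replicate 2, and the other 5 transgenic libraries lay below all NTG libraries. The log2 difference of transgenic from NTG libraries was -0.54 (two-sided exact permutation p = 0.0476, adjusted p = 0.229, n = 6 and 3). miR-378b was at 0.260 ± 0.0454% in NTG, 0.209 ± 0.0611% in TG-Low and 0.187 ± 0.0340% in TG-High, a log2 difference of -0.41 (exact permutation p = 0.0952, adjusted p = 0.229).

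In each line alone the ratios of all 3 paralogues were also lower than in NTG on average. The log2 differences were -0.35 (miR-378b), -0.48 (miR-378c) and -0.46 (miR-378d) in TG-Low, and -0.48, -0.60 and -0.52 in TG-High. Exact permutation tests of 3 against 3 libraries cannot go below p = 0.10, and both lines share the NTG libraries and the miR-378a-3p count. The ratio of the arms, miR-378a-5p to miR-378a-3p, was 3.55 ± 0.605% in NTG, 3.93 ± 0.629% in TG-Low and 3.71 ± 0.570% in TG-High. That is a log2 difference of 0.11 between transgenic and NTG libraries (exact permutation p = 0.524, adjusted p = 0.686), with groups that overlapped.

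**Figure D3:**
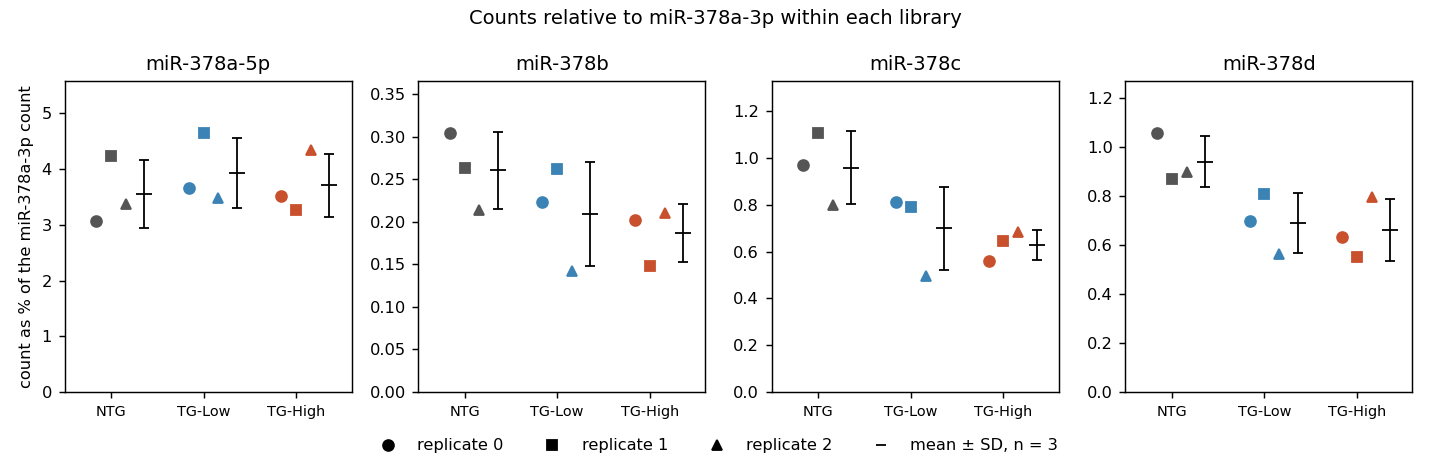
Count of each of 4 rows as a percentage of the miR-378a-3p count in the same library (linear axes from 0), with mean ± SD (n = 3). For miR-378d the 6 transgenic libraries, 0.552% to 0.811%, all lie below the 3 NTG libraries, 0.869% to 1.06%, whereas the 5p arm overlaps between groups.

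Variation across the 9 libraries was compared on log2 CPM over the 10 pairs of rows. Values were not centred by group and libraries were permuted across groups, so differences between groups enter r, rho and p. How many other rows vary as closely with miR-378b was not counted. By both measures 1 pair passed adjustment, miR-378b with miR-378d, and miR-378b with miR-378c passed by Pearson's r alone. miR-378b and miR-378d had Pearson's r = 0.901 (exact permutation p = 0.000705, adjusted p = 0.00705) and Spearman's rho = 0.867 (p = 0.00451, adjusted p = 0.0451). Without the 2 libraries farthest from the median of miR-378b, r was 0.802. miR-378b and miR-378c had r = 0.813 (exact permutation p = 0.00743, adjusted p = 0.0371) and rho = 0.733 (p = 0.0311, adjusted p = 0.104), and r was 0.486 without those 2 libraries. miR-378c and miR-378d had r = 0.755 (exact permutation p = 0.0190, adjusted p = 0.0634) and rho = 0.667 (p = 0.0589, adjusted p = 0.147), with r = 0.623 without the 2 farthest libraries.

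The arms of miR-378a had r = 0.737 (exact permutation p = 0.0335, adjusted p = 0.0838) and rho = 0.817 (p = 0.0108, adjusted p = 0.0538), with r = 0.661 without the 2 farthest libraries. Between miR-378a-3p and the paralogues r was 0.302 (miR-378b), 0.059 (miR-378c) and 0.275 (miR-378d), with rho of 0.483, 0.300 and 0.283 and exact permutation p values from 0.194 to 0.876. Without the 2 farthest libraries these r values were -0.206, -0.078 and -0.424. Between miR-378a-5p and the paralogues r was 0.218 to 0.415 (exact permutation p from 0.262 to 0.568). The 3 paralogue rows share most of their bases, and whether common reads contribute to these values was not tested.

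**Figure D4:**
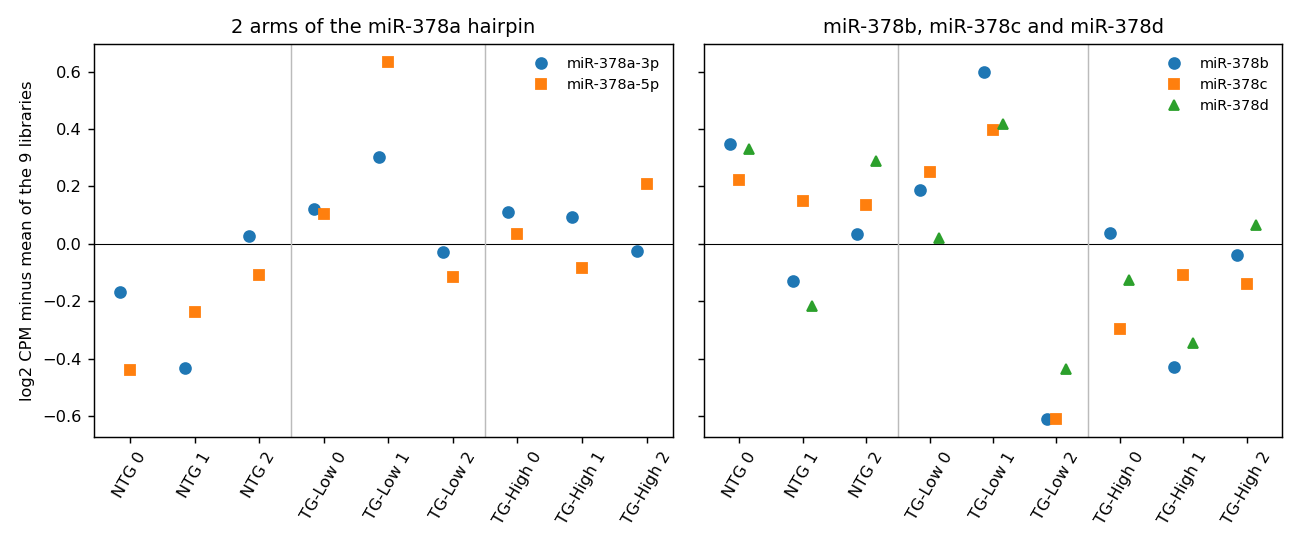
log2 CPM minus the mean of the 9 libraries (vertical axis) for each library, with the arms of miR-378a on the left and miR-378b, miR-378c and miR-378d on the right. The 3 paralogues lie highest in TG-Low replicate 1 and lowest in TG-Low replicate 2, whereas both arms of miR-378a lie lowest in an NTG library.

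By Pearson's r over the 9 libraries, the 5 rows most like miR-378a-3p were miR-1843b-3p (r = 0.893), miR-152-5p (0.870), miR-676-5p (0.820), miR-5099 (0.814) and miR-377-3p (0.806). None of them is a miR-378 row, and miR-378a-5p ranked 12 of 508 while miR-378d ranked 176. They were the highest of 508 values and are a description only. The 5 rows highest by Spearman's rho share 1 row with these, miR-152-5p (rho = 0.917). All 5 were far scarcer than miR-378a-3p, with miR-377-3p at 1.64 to 4.58 CPM and miR-152-5p at 25.7 to 47.4 CPM across libraries. In TG against NTG 0 of them passed in edgeR (adjusted p from 0.0766 to 0.488), and in TG-High against NTG miR-377-3p rose (log2 fold change 1.02, adjusted p = 0.0475).

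Other miRNAs described in energy, lipid or mitochondrial metabolism gave 31 rows, of which 30 were tested. In TG against NTG 3 of the 30 rose, 0 fell and 27 did not pass, which is 10% called beside 8.64% over all rows, with a median log2 fold change of -0.04 beside 0.01 over all 509 rows. Those that rose were both arms of miR-22, a miRNA of striated muscle, and miR-27b-5p (0.60 ± 0.13, edgeR adjusted p = 0.0176), an arm of a miRNA known for lipid metabolism. That is its scarcer arm, at 39.5 to 72.2 CPM across libraries. The abundant arm, miR-27b-3p, at 39761 to 56671 CPM, did not pass (0.25 ± 0.09, edgeR adjusted p = 0.0978). miR-22-3p, the row next above miR-378a-3p in abundance, was at 46070 to 49720 CPM in NTG and 65840 to 82890 CPM in the transgenic libraries, with no overlap, where miR-378a-3p overlapped.

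miR-210-3p, a hypoxia-induced repressor of iron-sulfur cluster assembly, had a log2 fold change of -0.47 ± 0.14 in TG against NTG (edgeR adjusted p = 0.0529). miR-33-5p, which comes from the intron of a sterol regulator gene, had 0.24 ± 0.19 (adjusted p = 0.424). miR-181c-5p, described as acting in heart mitochondria, had -0.11 ± 0.21 (adjusted p = 0.759). miR-208a-3p, from an intron of the cardiac myosin gene Myh6, had 0.15 ± 0.11 (adjusted p = 0.369). In TG-Low 2 of the 30 rows rose and 0 fell (6.67% called, beside 1.57% of all rows). Those 2 rows were the arms of 1 miRNA, miR-22 (edgeR adjusted p = 0.0185 for each). In TG-High 3 rose and 1 fell (13.3% called, beside 18.3% of all rows), the last being miR-499-5p of the myosin gene Myh7b (-0.92 ± 0.14, edgeR adjusted p = 0.00161). Between the lines miR-499-5p was lower in TG-High (-0.65 ± 0.14, adjusted p = 0.0492), and it was the 1 row of 30 that passed (3.33%, beside 1.38% of all rows).

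The striated muscle miRNAs gave 19 rows, 18 of them tested. In TG against NTG 0 of the 18 passed in edgeR, beside 8.64% of all rows, and 4 were below 0.05 before adjustment (22.2%, beside 30.8% of all rows). Among those 4 were miR-1a-3p and miR-1b-5p, with equal values (0.56 ± 0.23). The arms of miR-486a and miR-486b also form near-identical pairs, so the 18 rows hold fewer distinct measurements. The median log2 fold change was 0.11, and in TG-High against NTG 1 fell (5.56%, beside 18.3% of all rows), miR-499-5p, which is also on the metabolic list. Against this, the miR-378 rows had a median of -0.08 in TG against NTG, 0.05 in TG-Low, -0.23 in TG-High and -0.18 between the lines, where the medians over all 509 rows were 0.01, 0.02, -0.01 and -0.02. Each miR-378 median is the value of 1 row, miR-378b against NTG and miR-378a-5p between the lines. miR-378a-3p, by far the most abundant miR-378 row, had 0.28 in TG against NTG.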

How the data were processed

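Small RNA of 9 left ventricle libraries was measured as 1 table of 621 mature miRNA rows. Its columns hold raw read counts per the file headers. For transgenic against NTG the authors deposited a p-value, an adjusted p-value, a Wald score, a log2 fold change, its standard error and a mean normalized signal. Per the submitters' processing notes the tools included DESeq2 1.18.1, SAMtools, Novoalign, Trim Galore 0.4.0 and bcl2fastq 1.8.4, with mm10 (GRCm38) as build. Which annotation and counting tool were used, and each tool's role, was not given in the sources used here. Per the labels' protocols, RNA was prepared with Trizol and libraries with a TruSeq RNA kit. Columns of samples without a label numbered 0.

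Counts were fitted with edgeR 4.0.16 (limma 3.58.1, R 4.3.3): filterByExpr with a minimum count of 10 kept 509 rows and left out 112, followed by TMM scaling and glmQLFTest. TG against NTG used 2 groups, and the other contrasts a 3-group model over all libraries. The fits were tested on simulated data. Log2 CPM used a prior count of 2. Ratios and correlations were tested exactly with Python 3.11.15 and SciPy 1.17.1, all two-sided. Libraries of 1 group differed by a chi-square of 52.6 to 512 per degree of freedom, so none was treated as a repeat deposit of another. That spread exceeds counting noise and does not show separate animals.

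The miR-378 rows and the lists were chosen with earlier results of these data known. The text names all miR-378 rows, the 5 rows most like miR-378a-3p, the 5 most abundant, and list members that pass. The correlations between rows and the ratios of all rows to miR-378a-3p were chosen after values were seen. So were miR-210-3p, miR-33-5p, miR-181c-5p, miR-208a-3p, miR-27b-3p and the named heart muscle and blood marker rows. So were the rows named for equal counts or for their hairpins. Alternatives were DESeq2 1.42.0 size factors and its Wald test, library totals, scaling without the 5 most abundant rows, no filter, each library left out, and a replicate block. Hairpin positions are from GENCODE M21.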

Additional observations from a re-analysis of the deposited data

How the results depend on the processing

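Over 15 alternatives each, 0 of the 20 log2 fold changes of miR-378 rows crossed the adjusted p of 0.05, and 12 of 300 refits reversed a sign. miR-378a-3p in TG against NTG stayed positive in all 15, from 0.16 to 0.38 (edgeR or DESeq2 adjusted p from 0.0572 to 0.397), and miR-378a-5p from 0.26 to 0.47 (0.0518 to 0.290). Signs that turned with 1 library left out had ranges of -0.27 to 0.055 (miR-378b, TG against NTG), and in TG-Low against NTG of -0.26 to 0.28 (miR-378b), -0.29 to 0.13 (miR-378c) and -0.35 to 0.052 (miR-378d). In TG-High against TG-Low they were -0.13 to 0.011 (miR-378a-3p), -0.29 to 0.036 (miR-378a-5p), -0.49 to 0.0056 (miR-378b) and -0.31 to 0.041 (miR-378d). With library totals alone miR-378b in TG-Low against NTG was -0.023. The causes were not tested.

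Of the 16 ratios, 0 passed an adjusted p of 0.05 under any of 11 alternatives. The miR-378d ratio in TG against NTG ranged from -0.54 to -0.40 with 1 library left out. Ratios to miR-378a-3p turned sign in TG-High against TG-Low, with ranges of -0.20 to 0.044 (miR-378a-5p), -0.39 to 0.053 (miR-378b), -0.35 to 0.0015 (miR-378c) and -0.21 to 0.057 (miR-378d), and in TG-High against NTG of -0.056 to 0.20 (miR-378a-5p).

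The count of called rows in TG against NTG was 44, 83 by DESeq2's Wald test, and 14 (without NTG replicate 0) to 108 (without TG-Low replicate 2) with 1 library left out. In TG-Low against NTG it was 8, with 38 by DESeq2, 21 without a filter, and 0 (without TG-Low replicate 1, with 67 at an unadjusted p under 0.05) to 18. In TG-High against NTG it was 93, and 37 (without TG-High replicate 0) to 114 (without TG-Low replicate 2) with 1 library left out. In TG-High against TG-Low it was 7, with 36 by DESeq2, 25 without a filter, 4 with library totals, and 0 (without TG-High replicate 0, with 31 at an unadjusted p under 0.05) to 10. Same-numbered libraries did not deviate together (r from -0.17 to 0.23 over 9 pairs, 4 of 9 libraries closest to their own number), so the replicate numbers were not taken as pairs. With the replicate block the counts were 35, 11, 75 and 6 in the 4 comparisons, and it changed no call of a miR-378 row. Exact permutation tests within replicate numbers on 3 pairs cannot go below p = 0.25. The least deep library, TG-High replicate 2 with 3.62 M counts, still held 442 counts of miR-378b, and its counting interval is narrower than the spread between libraries.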
